A study of Mus musculus with 9 samples.

Results

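Myelin is the sheath that oligodendrocytes wrap around axons, and 9 genes that mature oligodendrocytes use to build it were followed through the striatum of *Shank3* mutant mice. The genes are *Mbp*, *Mog*, *Mag*, *Mobp*, *Cnp*, *Mal*, *Cldn11*, *Opalin* and *Ermn*. They were picked by symbol as known myelin and oligodendrocyte genes, with earlier results of these data known, and all 9 were found among the 15464 genes of the deposited table. All 9 were also among the 14239 genes tested, a filter that asked for 10 normalized counts in 3 or more libraries. RNA-seq had been made from the dissected striatum of 9 male mice of the C57BL/6J background, aged 10 to 12 weeks, with 1 library per mouse. The 3 WT mice carried no targeted *Shank3* allele, the 3 HET mice were heterozygous for the *Shank3B* allele, and the 3 KO mice were homozygous for it. WT mice were littermates of the mutants. The allele removes part of *Shank3*, a gene for a scaffold of excitatory synapses, in every cell of the body, and other exons of the gene can still be transcribed. Values are normalized counts, which the authors obtained with Salmon, tximport and DESeq2 size factors, and the number of reads behind them is unknown.

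Oligodendrocytes arise from dividing precursor cells, which become committed, newly formed and then mature, myelin-forming cells. Transcription factors such as Sox10 and Myrf switch on the myelin genes late in this course. In the striatum, the sheaths lie mostly on bundles of cortical axons that cross the tissue, and medium spiny neurons make up most of the neurons around them. A whole-tissue library cannot tell apart fewer oligodendrocytes from less myelin RNA in each of them.

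*Mbp* encodes myelin basic protein, which holds the cytoplasmic faces of the membrane together, and lies on the plus strand of chromosome 18 (chr18:82475146-82585637, GRCm38). *Mobp*, for another small basic protein of compact myelin, is on chromosome 9 (chr9:120149707-120181484, plus strand). *Mal*, a proteolipid of myelin membrane domains, is on chromosome 2 (chr2:127633226-127656695, minus strand). The adhesion genes are *Mag*, whose product faces the axon (chr7:30899176-30914873, minus strand), and *Mog*, whose product sits on the outer surface of the sheath (chr17:37010743-37023398, minus strand). *Cldn11* encodes the claudin of myelin tight junctions (chr3:31149920-31164324, plus strand). *Cnp*, for an enzyme of the non-compact, cytoplasm-filled channels, is at chr11:100574904-100591729 on the plus strand. *Ermn* encodes ermin, which binds actin in late oligodendrocytes (chr2:58045113-58052864, minus strand), and *Opalin* a transmembrane glycoprotein of oligodendrocytes (chr19:41061710-41077113, minus strand).

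The libraries had summed normalized counts between 30830020 and 33790296. HET replicate 3 and KO replicate 3 stood apart from the others on the first principal component of all tested genes (33.6% of the variance), and the fitted differences of the 9 genes are given with and without them. Total *Shank3* was not lower in the mutants: it was between 6043 and 8812 normalized counts in WT, between 7098 and 8049.8 in HET and between 10237 and 10798 in KO, as sums over the whole gene that do not resolve the targeted exons. The medium spiny neuron genes were abundant, with *Drd1*, a dopamine receptor gene, between 2369.6 and 5086 normalized counts.

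The sequence just before the start of 4 of these genes is shown because these windows hold letters that factors of this lineage are known to bind. Whether these letters bear on the levels of the genes was not tested. RefSeq windows (GRCm38.p6) were used for 8 of the 9 genes, all but *Mbp*, and the 250 bases before each RefSeq start were searched on both strands for CTGGCAC and CTGGTAC, forms of the Myrf motif, and for ACAAAG, a core of the motif bound by Sox10 and other Sox proteins. Capitals mark the matches, and a match on the other strand appears as its reverse complement. No base was part of more than 1 match.
Mag: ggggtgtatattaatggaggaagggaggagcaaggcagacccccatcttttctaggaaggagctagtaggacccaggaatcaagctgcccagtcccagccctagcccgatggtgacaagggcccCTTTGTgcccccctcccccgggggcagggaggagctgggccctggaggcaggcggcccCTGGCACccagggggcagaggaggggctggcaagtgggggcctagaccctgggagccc
Cnp: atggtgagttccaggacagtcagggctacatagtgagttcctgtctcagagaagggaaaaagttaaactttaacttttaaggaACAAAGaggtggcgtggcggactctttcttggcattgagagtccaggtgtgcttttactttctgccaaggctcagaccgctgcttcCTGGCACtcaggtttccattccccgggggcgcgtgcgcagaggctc
Mog: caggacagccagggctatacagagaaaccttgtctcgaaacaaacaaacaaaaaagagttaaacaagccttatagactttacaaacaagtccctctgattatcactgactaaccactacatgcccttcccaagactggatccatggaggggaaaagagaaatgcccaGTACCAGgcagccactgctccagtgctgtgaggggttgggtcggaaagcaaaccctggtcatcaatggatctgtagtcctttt
Mobp: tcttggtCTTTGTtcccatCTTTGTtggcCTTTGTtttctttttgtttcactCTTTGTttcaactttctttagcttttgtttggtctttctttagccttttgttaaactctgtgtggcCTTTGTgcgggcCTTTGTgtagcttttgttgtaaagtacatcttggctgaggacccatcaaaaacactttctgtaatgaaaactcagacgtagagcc
The printed stretches are, in this order, chr7:30914874-30915113 (minus strand), chr11:100574689-100574903 (plus strand), chr17:37023399-37023648 (minus strand) and chr9:120149492-120149706 (plus strand), each written 5′ to 3′ along its gene and ended where the GENCODE gene begins, which left out 10 bases for *Mag* and 35 each for *Cnp* and *Mobp*. For *Mag*, RefSeq gives 3 starts, and the window used is 1 of 2 that hold the same 2 matches. A Myrf form was present for 3 of the 8 genes, at 68 bases before the RefSeq start of *Mag*, 81 before that of *Cnp* and 83 before that of *Mog*. One of these forms is present in 5.93% of the 32851 RefSeq windows of the same length. Such shares are per window, whereas members were counted per gene over all windows of the gene. ACAAAG was found for 4 of the 8 genes, with 6 copies in the window of *Mobp*, against 16.5% of all windows. Besides these windows, that of *Opalin* held 1 copy of ACAAAG, while those of *Mal*, *Cldn11* and *Ermn* held none of the 3 strings. A match is a string of letters and not a measured binding site.

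Levels of different genes were compared per length, as normalized counts per kb of the longest protein-coding transcript in GENCODE. In WT, *Mbp* was the most abundant of the 9, with 18132 ± 5274 per kb (SD, n = 3). *Mobp* followed with 10022 ± 3390 per kb (SD, n = 3) and *Cnp* with 4894 ± 1439 (SD, n = 3). The WT libraries of *Mbp*, 14549 to 24188 per kb, lay above those of *Mobp*, 8058 to 13936, and these above those of *Cnp*, 3860 to 6537. *Mal* (mean 3205 per kb), *Mag* (3144) and *Cldn11* (2586) had overlapping ranges, and those of *Mal* and *Mag* also overlapped with *Cnp*. *Mog* was lower, with 1318 ± 440 per kb (SD, n = 3), and did not overlap with *Cldn11*. The least abundant were *Opalin* (447 ± 154 per kb) and *Ermn* (428 ± 86.7 per kb; SD, n = 3 for each), which overlapped. The first 3 ranks were the same in HET and KO. With the union of all exons as the length, *Cnp* and *Mal* exchanged places, as did *Mag* and *Cldn11* and *Opalin* and *Ermn*. Together the 9 genes took between 0.313% and 0.675% of a library's normalized counts, with *Mbp* alone between 0.159% and 0.379%.

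The values of each library come first, because the spread between mice of the same genotype was the leading feature of these genes. The normalized counts of *Mbp* were 75118, 69792 and 116028 in WT replicates 1 to 3, 96949.8, 119417 and 95560.2 in HET and 98917, 110356 and 53066 in KO. *Mobp* had 26479.8, 26524 and 45794 in WT, 41150.3, 38774 and 43280.4 in HET and 37118, 40108 and 23750.5 in KO. For *Mal* the values were 7307, 6841 and 12566 in WT, 11543, 10695 and 11110.4 in HET and 9946, 10695 and 5704 in KO. In each of these structural genes, WT replicates 1 and 2 and KO replicate 3 were low and the other 6 libraries high, and the range of WT covered most of the HET and KO values.

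The adhesion and junction genes had the same low libraries. *Mag* had 6644, 6256 and 10056 normalized counts in WT, 8527, 9252 and 11411 in HET and 8457, 9077 and 6281 in KO. *Mog* had 1820.5, 1807 and 3111 in WT, 2719.6, 2757 and 2360.2 in HET and 2478, 2647 and 1508 in KO. The counts of *Cldn11* were 4219.8, 3705 and 6581 in WT, 5452, 6140.1 and 7965 in HET and 5691, 6085 and 4089 in KO. *Mag* and *Cldn11* were highest in HET replicate 3, whereas *Mog* was lowest there among the HET libraries.

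*Cnp* had 10098, 9098 and 15408 normalized counts in WT, 13566, 13873 and 14798 in HET and 12759, 13339 and 8489.7 in KO. *Opalin* had 622, 697 and 1146 in WT, 999, 1168 and 848 in HET and 886, 976 and 509 in KO. The values of *Ermn* were 1542, 1248 and 1877 in WT, 1727, 1885 and 2356 in HET and 1754, 1927 and 1205 in KO. The highest of the 9 libraries had between 1.81 times (*Cnp*) and 2.30 times (*Opalin*) the value of the lowest.

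**Figure D1:**
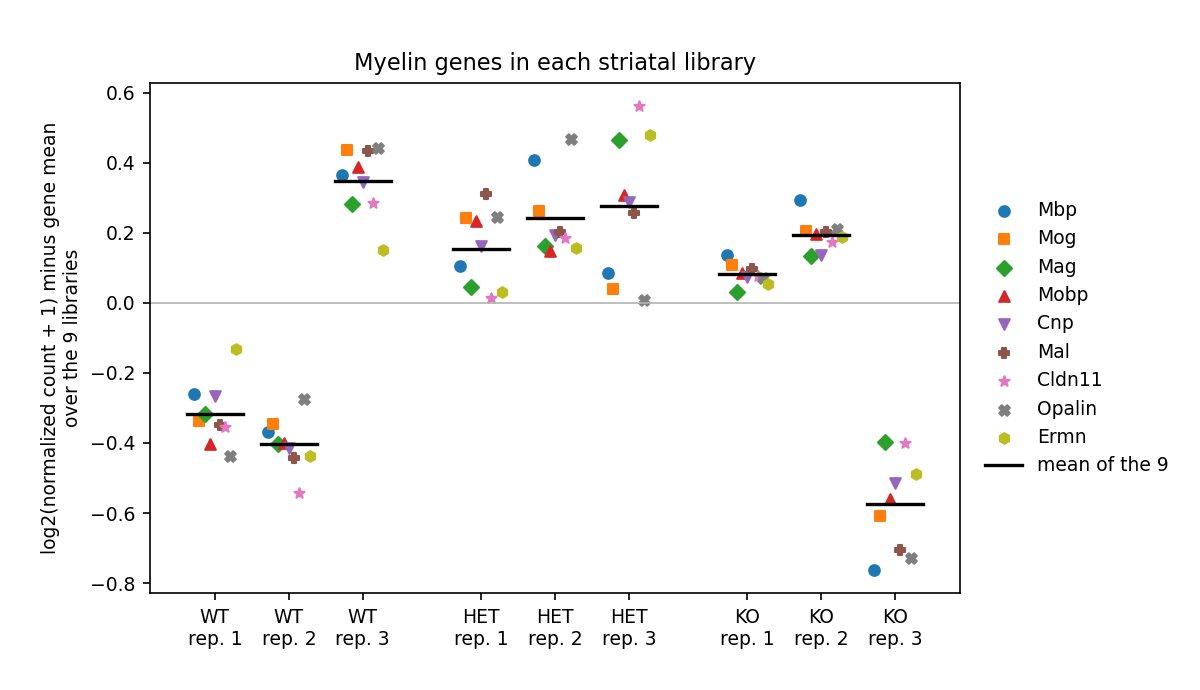
Level of each of the 9 myelin genes in each library, as log2(normalized count + 1) minus the mean of the gene over the 9 libraries. Points are genes, horizontal bars the mean of the 9 genes in a library. All points of WT replicates 1 and 2 and of KO replicate 3 lie below 0 and all points of the other 6 libraries above it.

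The order of the libraries was nearly the same for every gene. KO replicate 3, WT replicate 2 and WT replicate 1 were the 3 lowest libraries for 9 of the 9 genes. KO replicate 3 was the lowest for 7 of them, and WT replicate 2 for the other 2, *Mag* and *Cldn11*. The highest library was WT replicate 3 for 4 genes (*Mog*, *Mobp*, *Cnp* and *Mal*), HET replicate 3 for 3 (*Mag*, *Cldn11* and *Ermn*) and HET replicate 2 for 2 (*Mbp* and *Opalin*). As the mean centred log2 level of the 9 genes, KO replicate 3 was at −0.57, WT replicate 2 at −0.40 and WT replicate 1 at −0.32. The other libraries lay between 0.08 in KO replicate 1 and 0.35 in WT replicate 3, and their order changed from gene to gene. The highest of these library means was 1.89 times the lowest on the fold scale. The mean level of a library accounted for 90.3% of the variance of the 9 centred genes over the libraries, for 88.4% within genotypes and for 94.0% without HET and KO replicate 3. Kendall's coefficient of concordance over the 9 genes and 9 libraries was 0.817, given as a description.

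In KO, replicate 3 stood below the mean of KO replicates 1 and 2 in all 9 genes, with 50.7% of that mean for *Mbp*, 54.6% for *Opalin* and 55.3% for *Mal* at the low end and 71.6% for *Mag* at the high end. In WT, replicate 3 stood above the others, and its ratio to the lowest WT library ran from 1.505 (*Ermn*) to 1.84 (*Mal* and *Opalin*). The HET libraries were closest together, with a ratio of highest to lowest between 1.08 (*Mal*) and 1.46 (*Cldn11*). Since the spread rests on single mice in groups of 3, no difference in spread between genotypes was tested. The within-genotype SD on the log2 scale ran from 0.30 (*Mag* and *Ermn*) to 0.42 (*Opalin*), against a median of 0.19 over all tested genes. Among the 6739 genes with a mean level at least that of the lowest member, between 90.1% and 97.5% had a smaller SD than a given member.

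In HET against WT, the 9 genes were fitted higher by a median log2 fold change (log2FC) of 0.36, and none was separable from the spread between mice. Values ran from 0.26 for *Mog* to 0.46 for *Cldn11*. The limma fit with Benjamini-Hochberg adjustment over all genes called 0 of the 9 at 0.05 (background 0% of 14239), and 0 of the 9 passed 0.05 without adjustment (background 1.11%). All 9 had a log2FC above 0, as had 49.3% of all genes, whose median log2FC was −0.0027. Since the 9 genes rise and fall together in each library, their equal signs do not count as 9 separate observations. *Cldn11* had 4835 ± 1534 normalized counts in WT and 6519 ± 1299 in HET (SD, n = 3 each), a log2FC of 0.46 with a 95% interval from −0.05 to 0.97 (limma, adjusted p = 0.999). *Mbp* had 86979.5 ± 25298 in WT and 103976 ± 13391 in HET (SD, n = 3 each), and the interval of its log2FC of 0.29 ran from −0.36 to 0.93. For *Mag* the log2FC was 0.37 (−0.08 to 0.82) and for *Mog* 0.26 (−0.28 to 0.81). WT and HET libraries overlapped in 9 of 9 genes, while HET lay wholly above WT in 2.25% of all genes and wholly below in 2.19%. Exact two-sided permutation tests gave p between 0.2 and 0.4, and groups of 3 cannot go below 0.1.

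The size of the HET difference depended on which WT mice were compared. Each of the 9 genes stayed above 0 with any 1 library left out, but these signs are not separate observations. WT replicate 3 was above the mean of the HET libraries in *Mbp*, *Mog*, *Mobp*, *Cnp*, *Mal*, *Mag*, *Cldn11* and *Opalin*, and *Ermn* was the exception. Without WT replicate 3 the median log2FC was 0.58, and 8 of the 9 genes, all but *Mbp*, had an unadjusted p under 0.05, as had 1.88% of all genes in that fit, with 0 called after adjustment in limma. Without HET replicate 1, *Cldn11* alone of the 9 passed the unadjusted threshold, as did 2.03% of all genes. Without WT replicate 2 the median was 0.21. Leaving out replicate 3 of both HET and KO gave 0.33, with 0 of the 9 at either threshold.

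In KO against WT, the 9 genes were near equal on average, with a median log2FC of 0.0099 against 0.0047 over all genes. *Cldn11* (0.15) and *Opalin* (−0.06) were the extremes. In limma 0 of the 9 passed after Benjamini-Hochberg adjustment (background 0%) and 0 without it (background 0.822%), and 5 of the 9 had a log2FC above 0, as had 51.6% of all genes. *Mbp* had 87446 ± 30319 normalized counts in KO (SD, n = 3), a log2FC of −0.02 with a 95% interval from −0.67 to 0.62. For *Cnp*, with 11529 ± 2648 in KO and 11534 ± 3391 in WT (SD, n = 3 each), the log2FC was 0.0099 (−0.46 to 0.48). On the fold scale the interval of *Mbp* ran from 0.629 to 1.54 times the WT level, so the comparison does not show that the genotypes are equal. KO and WT libraries overlapped in 9 of 9 genes, while KO lay wholly above WT in 2.02% of all genes and wholly below in 2.51%, and the exact two-sided permutation p was between 0.8 and 1.

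The KO average turned on single libraries. Without KO replicate 3 the median log2FC was 0.26, with each of the 9 genes above 0, and without WT replicate 2 it was −0.14. *Mbp* went from −0.02 to 0.30 without KO replicate 3 and to −0.23 without KO replicate 2. None of the 9 passed the unadjusted threshold in any of the 9 fits that each left out 1 library.

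KO against HET gave a median log2FC of −0.31, from −0.39 (*Mal*) to −0.28 (*Mog*). In limma 0 of the 9 passed the adjusted threshold (background 0%) and 0 the unadjusted one (background 1.31%), and 0 of the 9 had a log2FC above 0, as had 49.6% of all genes. KO libraries lay below HET libraries without overlap in 1 gene, *Cnp* (8489.7 to 13339 against 13566 to 14798 normalized counts, exact two-sided permutation p = 0.1), where 2.19% of all genes did so and 2.25% lay above. Its log2FC was −0.32, with a 95% interval from −0.79 to 0.16. Without replicate 3 of both genotypes the median was −0.05, and *Cldn11* (0.02) and *Ermn* (0.03) were above 0. The comparisons with WT and this one share libraries and are given side by side only.

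**Figure D2:**
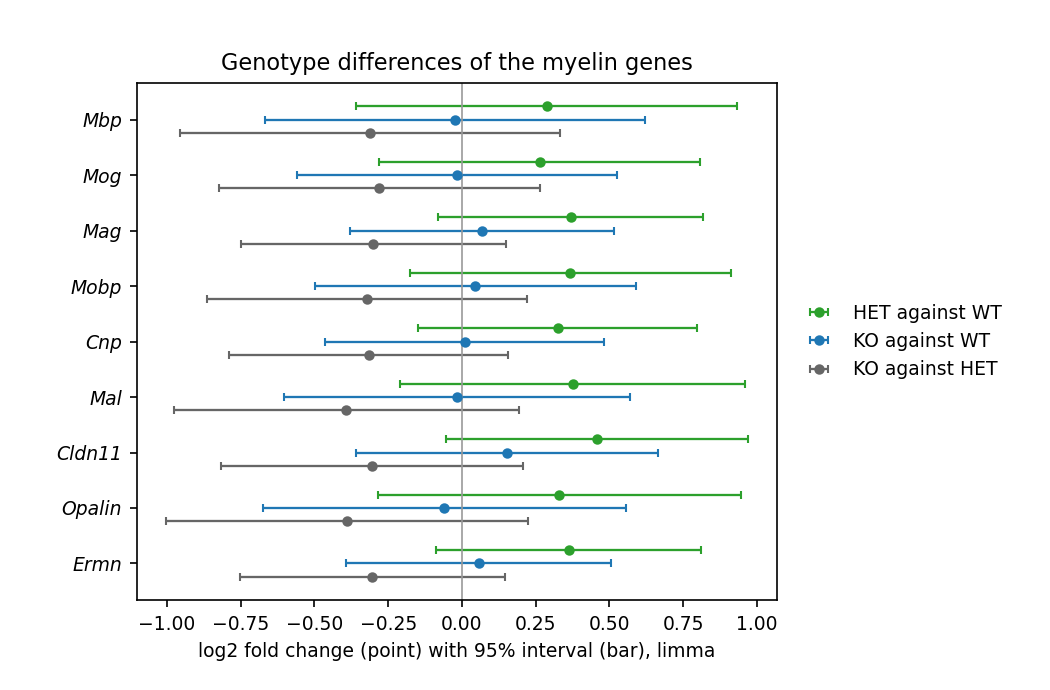
Fitted log2 fold change of each gene in the 3 comparisons (points) with its 95% interval from limma (bars), over 3 mice per genotype. Every interval includes 0, and HET against WT points lie between 0.26 and 0.46.

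Beyond the shared shift, HET replicate 3 and KO replicate 3 had a different balance among the 9 genes. Relative to the mean of the 9 in the same library, *Cldn11* was at 0.29 in HET replicate 3 and 0.17 in KO replicate 3 on the log2 scale, *Mag* at 0.19 and 0.18, and *Ermn* at 0.20 and 0.09. On the other side were *Opalin* at −0.27 and −0.16 and *Mbp* at −0.19 in both. *Mog* was at −0.24 in HET replicate 3 and at −0.03 in KO replicate 3. The enzyme gene *Cnp* stayed closest to the mean, with an SD of 0.039 over the 9 libraries, and *Opalin* departed most, with 0.156. KO replicates 1 and 2 departed least, by at most 0.10, which was *Mbp* in KO replicate 2. Single genes also departed elsewhere, such as *Ermn* at 0.19 in WT replicate 1 and −0.20 in WT replicate 3 and *Opalin* at 0.23 in HET replicate 2. These departures are small beside the shared shift, which covers 0.92 log2 units.

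Levels of all genes also shifted with base composition. Among all tested genes, the 2847 with the highest GC content (56.2% to 72.8%) had a median centred log2 level of 0.08 in HET replicate 3 and 0.08 in KO replicate 3, and the 2847 with the lowest (31.9% to 44.6%) medians of −0.06 and −0.07. WT replicate 1 shifted about as much the other way, with −0.07 and 0.06 for the same groups of genes, and HET replicate 1 with −0.07 and 0.03. The transcript of *Mag* has 57.6% GC and that of *Opalin* 47.6%, while *Ermn*, above the library mean in HET and KO replicate 3, has 38.02%. *Cldn11* (50.9%) was above that mean in both of these libraries and *Mbp* (51.0%) below it. *Cnp*, with 55.8%, was at 0.01 and 0.06. *Mobp* has 53.3%, *Mog* 50% and *Mal* 48.9%. The part of base composition in these values was not tested.

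**Figure D3:**
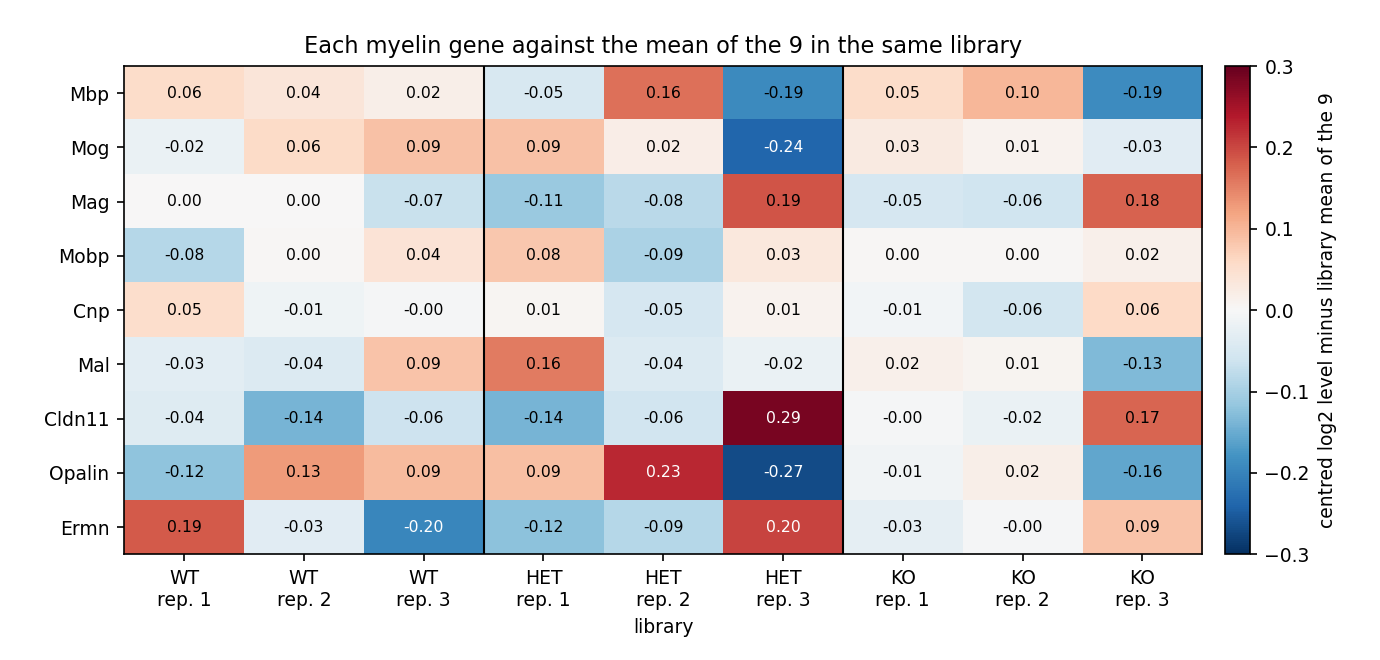
Centred log2 level of each gene minus the mean of the 9 genes in the same library. Rows are genes, columns libraries, and the numbers and colours give the difference. In HET replicate 3, *Cldn11* (0.29), *Ermn* (0.20) and *Mag* (0.19) are above the library mean and *Opalin* (−0.27), *Mog* (−0.24) and *Mbp* (−0.19) below it.

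Likeness over the 9 libraries was measured as Pearson's r of centred log2 levels. It is a description across 9 libraries that share their normalization. Each member was compared with the mean of the other 8, and r ran from 0.898 for *Ermn* and 0.8995 for *Cldn11* to 0.994 for *Cnp*. All 9 had an r of at least 0.8, a value that 1.15% of all tested genes reached with the mean of the 9, and 7 had one of at least 0.9, which 0.358% of all genes reached. The median over all genes was −0.03. Within genotypes, the r of the members was between 0.866 (*Ermn*) and 0.993 (*Cnp*), and without HET and KO replicate 3 between 0.908 (*Ermn*) and 0.996 (*Mag*). Leaving out the libraries farthest from the median, KO replicate 3 and WT replicate 2, gave values from 0.685 (*Ermn*) to 0.987 (*Cnp*).

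Among the genes most like the mean of the 9, members aside, were *Tspan2* (r = 0.991), *Spg20* (0.985), *Sema4d* (0.984), *Tmem63a* (0.982), *Slain1* (0.979), *Tmem98* (0.979), *S1pr5* (0.976) and *Tspan15* (0.971), each over 9 libraries. They were chosen for this value among all tested genes, so it carries no test. *Tspan2* encodes a tetraspanin of the oligodendrocyte membrane and had 2488 to 4509.8 normalized counts, with its lowest value in KO replicate 3. Without KO replicate 3 and WT replicate 2, the r of these 8 genes was between 0.940 (*Tspan15*) and 0.975 (*Tspan2*).

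**Figure D4:**
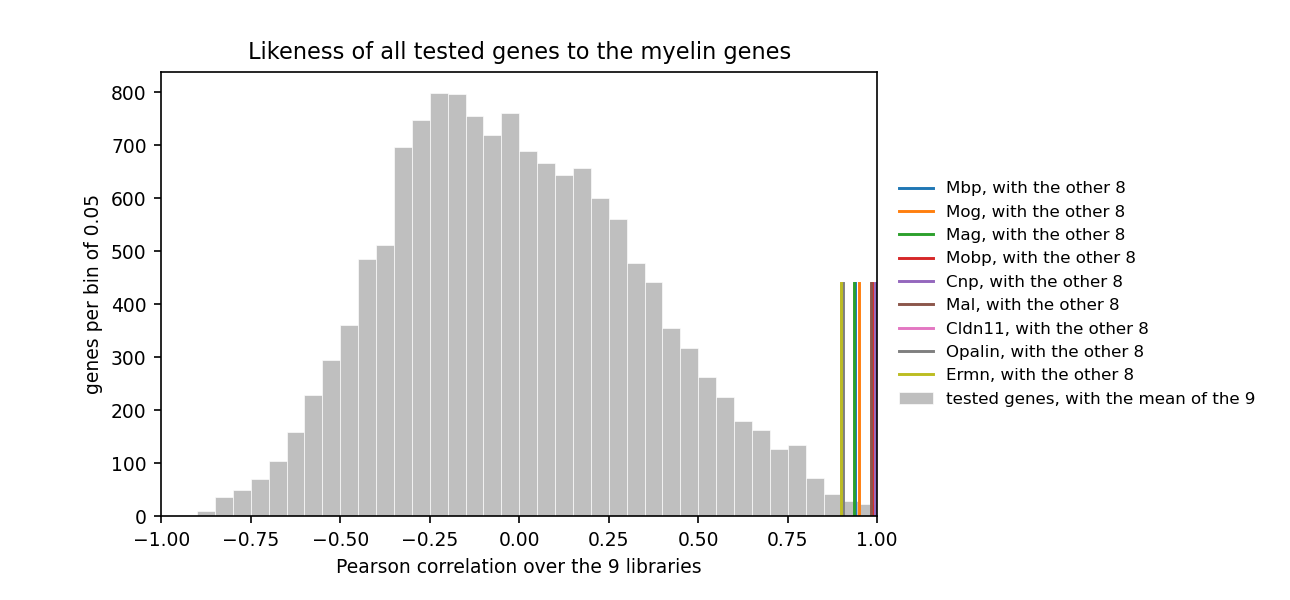
Distribution of Pearson's r over the 9 libraries between each tested gene and the mean of the 9 myelin genes (grey bars, genes per bin), with the r of each myelin gene to the mean of the other 8 (coloured lines). The coloured lines lie between 0.898 and 0.994, at the right edge of a distribution with a median of −0.03.

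Other genes of the lineage came from 6 lists, with 64 distinct genes tested. The limma fit called 0 of the 64 after adjustment in any of the 3 comparisons. At an unadjusted p under 0.05 there were 2 in HET against WT, *Aspa* and *Car2* (1.11% of all genes), 0 in KO against WT (0.822%) and 0 in KO against HET (1.31%). Without HET replicate 3 neither of the 2 passed in limma, with a log2FC of 0.32 for *Aspa* (unadjusted p = 0.177) and 0.22 for *Car2* (unadjusted p = 0.113). Under the replicate block in limma *Aspa* had an unadjusted p of 0.0507 and *Car2* one of 0.00719. Neither passed with array weights (limma, unadjusted p = 0.0589 and 0.0566) or without a trend in the variance prior (0.0651 and 0.0526). The same held without WT replicate 1, WT replicate 2 or HET replicate 2. In HET against WT, 55 of the 64 had a log2FC above 0 (49.3% of all genes), in KO against WT 45 (51.6%), and in KO against HET 16 (49.6%). Many of the 64 rise and fall together over the libraries, and the comparisons share libraries, so these counts are not separate observations.

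Other myelin proteins were lowest in the same libraries on average. The 14 genes of this list had a median r of 0.927 with the mean of the 9, with 9 of the 14 at 0.8 or more, and a mean centred log2 level of −0.40 in KO replicate 3, −0.31 in WT replicate 2 and −0.18 in WT replicate 1. Their median log2FC was 0.21 in HET and 0.07 in KO against WT. In HET, *Tspan2* was the highest at 0.40 (standard error 0.22) and *Omg* the lowest at 0.05, and in KO *Cd82* at 0.12 and *Gjc3* at −0.05. *Omg*, a myelin glycoprotein gene that neurons also express, had the lowest r of the list, −0.13, and its normalized count was highest in KO replicate 3, with 4988.

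Lipids make up much of the sheath, and 8 genes of their synthesis had a median r of 0.784 and a median log2FC of 0.28 in HET and 0.12 in KO against WT. *Aspa*, for the enzyme that frees acetate for lipid synthesis, was the highest in both, at 0.48 (standard error 0.21, adjusted p = 0.999 in limma) in HET and 0.32 in KO. Its normalized counts were 476, 387 and 595 in WT, 512, 693 and 840.2 in HET and 602, 712 and 499 in KO, with overlap between the groups. *Sgms1*, for a sphingomyelin synthase, was the lowest in both, at 0.07 and −0.05.

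The 17 other genes of mature oligodendrocytes had a median r of 0.879, and 12 of them had an r of at least 0.8. Their medians were 0.25 in HET and 0.02 in KO against WT. *Klk6*, for a secreted protease, was the highest in HET at 0.56 (standard error 0.29), or 0.23 without HET replicate 3, and *Apod*, for a lipid-binding apolipoprotein, the lowest in both, at 0.14 in HET and −0.19 in KO. *Car2*, a carbonic anhydrase gene, had 8177 normalized counts in HET replicate 3 and between 4073 and 5622 in the other libraries.

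The 10 transcription factors had a median r of 0.620. *Olig2* had an r of 0.901 and *Zfp488* one of 0.204. The median log2FC was 0.18 in HET and 0.02 in KO against WT. *Myrf*, which drives the myelin genes, was the highest in both, at 0.38 (standard error 0.18, adjusted p = 0.999 in limma) in HET, or 0.18 without HET replicate 3, and 0.24 in KO, and its highest library was HET replicate 3 with 3481 normalized counts against 1840.4 to 2788 in the others. *Zfp488* was the lowest in HET at −0.03 and *St18* in KO at −0.14. *Sox10* was between 1091 and 1821 normalized counts, with its lowest value in KO replicate 3.

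Genes of earlier stages had lower correlations with the myelin genes. The 10 genes of committed and newly formed cells had a median r of 0.181, and 0 of them reached 0.8. *Casr* was the highest in both genotypes, at 0.76 in HET (standard error 0.39) and 0.35 in KO against WT, with counts of at most 19.4, near the filter. *Rras2* was the lowest in HET at −0.03 and *Bcas1* in KO at −0.14. *Bcas1*, a marker of cells that are starting to myelinate, had 2547 normalized counts in KO replicate 3 and 3747 in HET replicate 3, its lowest values, and between 3987 and 6572 in the others.

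Of the 10 precursor genes, 9 were in the table, with a median r of −0.10 and a median log2FC of −0.02 in HET and 0.04 in KO against WT. *Pdgfra*, the growth factor receptor that defines these cells, lay between 1659.9 and 1927 normalized counts in the 9 libraries, and KO replicate 3 had 1810.5. The range of the mean centred level was 0.27 log2 units in this list, against 0.92 for the 9 members. *Olig2*, which belongs also to the transcription factors, was the only one with an r of at least 0.8, and it was the highest in HET at 0.15. *Matn4* was the highest in KO at 0.17, or 0.03 without KO replicate 3, and *Cacng4* the lowest in both, at −0.14 and −0.25.

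**Figure D5:**
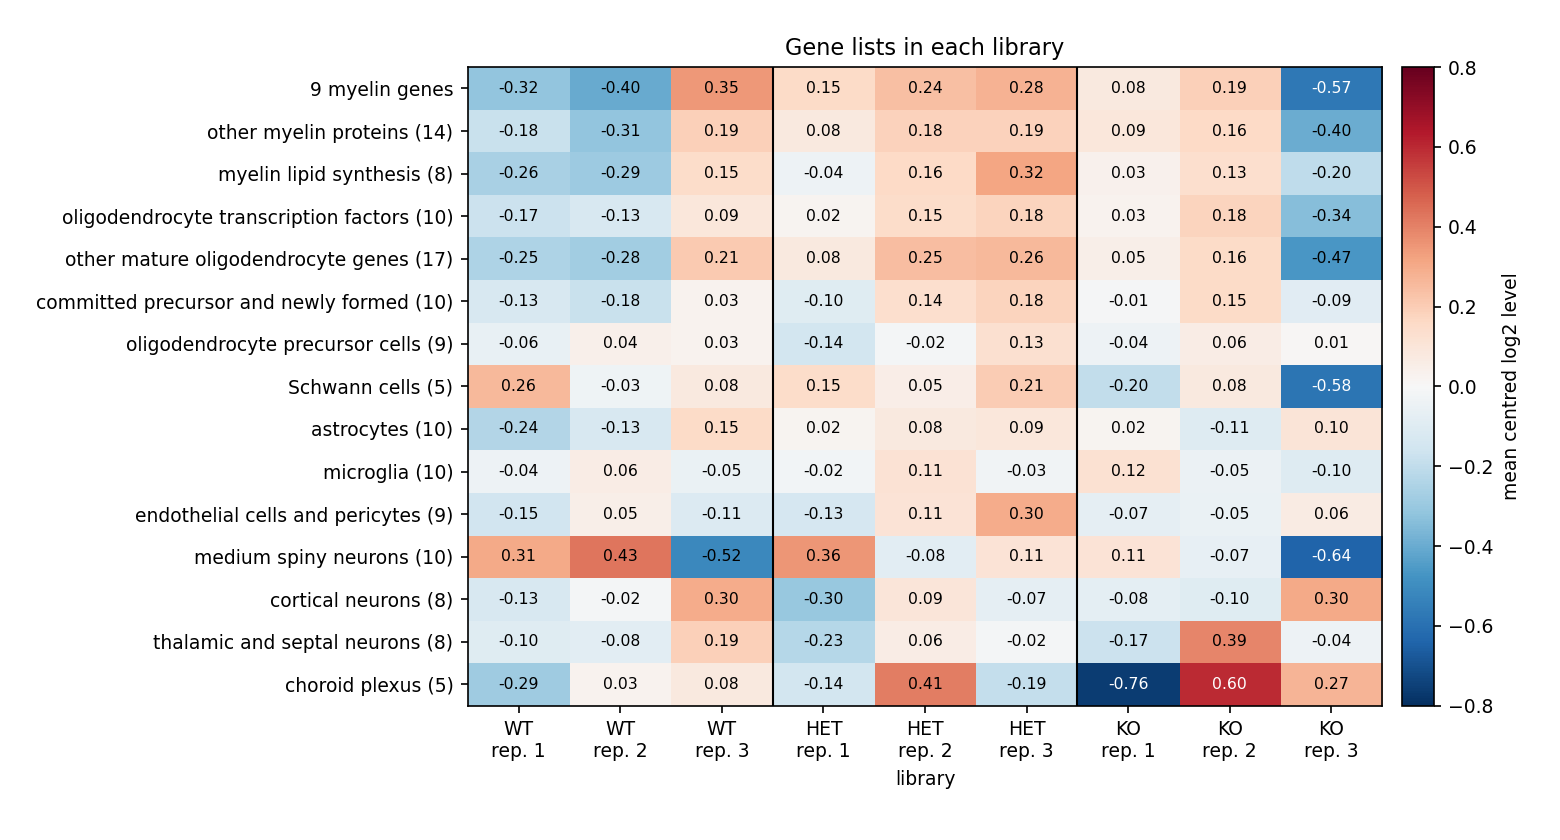
Mean centred log2 level of each gene list in each library, with the number of tested genes in parentheses. Rows are lists, columns libraries, and the numbers and colours give the level. The myelin genes and the other myelin proteins are lowest in KO replicate 3 (−0.57 and −0.40), while the precursor list is at 0.01 there.

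Markers of other cells were read beside these values. Peripheral myelin comes from Schwann cells, whose marker *Pmp2* was near 0 (0 to 2.58 normalized counts). Of the 6 Schwann cell genes 5 were tested, with a median r of 0.248, and the mean centred log2 level of the list was between −0.58 in KO replicate 3 and 0.26 in WT replicate 1. The 10 medium spiny neuron genes had a median r of −0.02, and a median log2FC of 0.07 in HET and −0.26 in KO against WT. They were at 0.31 and 0.43 in WT replicates 1 and 2, where the myelin genes were low, and at −0.52 in WT replicate 3, where these were high, but both lists were low in KO replicate 3, at −0.64 and −0.57. Their summed normalized counts were between 57017 and 113243 in WT, 81942 and 99763 in HET and 47989.5 and 86123 in KO. Cortical neuron genes (8 tested) were at 0.30 in both WT replicate 3 and KO replicate 3. Astrocyte genes (10 tested) were lowest in WT replicate 1 at −0.24 and at 0.10 in KO replicate 3, and microglia genes (10 tested) stayed between −0.10 and 0.12. Median r was 0.287 for astrocytes, 0.018 for microglia, 0.048 for endothelial cells and pericytes (9 of 10 tested), −0.17 for cortical and 0.182 for thalamic and septal neurons (8 tested). Of the choroid plexus genes 5 of 8 were tested, with a mean centred level between −0.76 in KO replicate 1 and 0.60 in KO replicate 2. *Ttr* was at 26.6 normalized counts or less in each library, and *Clic6*, the most abundant of the list, was between 60.3 and 207. Endothelial and pericyte genes had a log2FC above 0 in 9 of 9 in HET against WT (median 0.14) and in 0 of 9 in KO against HET (median −0.11). Cortical neuron genes were above 0 in 1 of 8 in HET against WT (median −0.17) and in 8 of 8 in KO against HET (median 0.13). Among all genes, 49.3% were above 0 in HET against WT and 49.6% in KO against HET. Both comparisons share the HET libraries, so these counts are not separate observations. None of the tested genes in these 8 lists was called by limma after adjustment. The part of the cell makeup of the dissected tissue in the shared shift of the myelin genes was not tested.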

How the data were processed

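Striatal RNA-seq libraries of 9 mice were grouped by the genotype in their labels (3 WT, 3 HET, 3 KO), and 0 columns were left unused. The signal deposited for each gene is a normalized count, for which the authors ran Salmon 0.9.1 on GRCm38 with GC bias correction, imported the estimates with tximport and divided them by DESeq2 1.19.11 size factors. Whole reads were not recovered, so the depth is unknown, no counting interval is given and a count test was not used.

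Values were transformed as log2(normalized count + 1), filtered at 10 in at least 3 libraries and fitted with limma 3.58.1 in R 4.3.3 (trend in the variance prior, all 9 libraries, no covariate), and p-values were adjusted by Benjamini-Hochberg, with calls at 0.05. An exact two-sided permutation test was added for each of the 9 genes. The fit was tested on simulated data. Symbols were found for 15457 genes, lengths and coordinates come from GENCODE, and promoter windows from RefSeq. Figures were drawn with matplotlib 3.10.9. The GC content was known for 14233 of the tested genes.

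The 9 genes and the gene lists were chosen with earlier results of these data known. Named genes are the 9 members, the highest and lowest gene of each lineage list in HET and KO against WT, the 10 genes most like the members, and *Shank3*. The rule also covers the lists of other cells, for which only list values and defining markers are given, and *Car2*, *Sox10*, *Pdgfra*, *Drd1*, *Pmp2*, *Ttr* and *Clic6* were added after their values were seen. Some genes that the rule names are not reported here. Correlations of library deviations over all genes were 0.52, 0.28 and 0.51 for same-numbered HET and KO libraries. They were 0.24, −0.22 and 0.02 for WT and KO, and 0.32, −0.01 and 0.0054 for WT and HET. Correlations between libraries of different numbers were not computed, and the labels give no pairing of mice. These values therefore do not show that the numbers pair any genotypes. P-values measure the spread between these mice. In the main limma fit, 1.11% (HET against WT), 0.822% (KO against WT) and 1.31% (KO against HET) of all genes had an unadjusted p under 0.05. Each share is below the nominal rate of that threshold, so a gene that does not pass it is weak evidence of no difference. Why the shares are low was not tested. Other pseudocounts, filters, scalings, variance priors, array weights, a replicate block and fits without single libraries were tried as alternatives.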

Additional observations from a re-analysis of the deposited data

How the results depend on the processing

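Under each alternative run, limma called 0 of the 9 genes and 0 of all genes, *Shank3* included, after adjustment. Leaving out 1 library in turn, the median log2FC of the 9 genes ran from 0.21 to 0.58 in HET against WT, from −0.14 to 0.26 in KO against WT and from −0.44 to −0.10 in KO against HET, and the number of the 9 at an unadjusted p under 0.05 in HET from 0 to 8. With array weights per library (0.308 for HET replicate 3 and 0.368 for KO replicate 3, 1.008 to 1.86 for the others) the medians were 0.37, 0.26 and −0.13. Pseudocounts, filters, equal library sums and other variance priors moved the medians by at most 0.011. Under quantile normalization they were 0.33, −0.0011 and −0.29, where −0.0011 in KO against WT is *Cnp*. The replicate block changed no call of the 9 genes, and in KO against HET it took all genes at an unadjusted p under 0.05 from 186 to 318. In HET and KO against WT the block gave 365 and 310, against 158 and 117. These counts were also over 1.5 times apart with HET and KO replicate 3 both left out (275 and 219), and for KO against WT with array weights (395), a mean of at least 50 (74) and no trend in the variance prior (176). Without 1 library they ran from 119 to 394 in HET against WT, from 72 to 292 in KO against WT and from 141 to 303 in KO against HET.

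Signs in KO against WT turned with array weights, and with HET and KO replicate 3 both left out, for *Mbp* (0.28 and 0.30), *Mog* (0.23 and 0.24), *Mal* (0.26 and 0.27), *Opalin* (0.20 and 0.23), *Apod* (0.029 and 0.027), *Bcas1* (0.21 and 0.25), *Gjc3* (0.21 and 0.22) and *St18* (0.013 and 0.099), and in HET against WT for *Omg* (−0.031 and −0.049), *Rras2* (0.014 and 0.022) and *Zfp488* (0.098 and 0.13). With both libraries left out alone, *Sgms1* in KO against WT was at 0.013, and in KO against HET *Cldn11* was at 0.024 and *Ermn* at 0.027.

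Leaving out 1 library gave ranges across 0 in KO against WT for *Mbp* (−0.23 to 0.30), *Mog* (−0.17 to 0.24), *Mag* (−0.060 to 0.28), *Mobp* (−0.10 to 0.31), *Cnp* (−0.14 to 0.24), *Mal* (−0.19 to 0.27), *Cldn11* (−0.016 to 0.40), *Opalin* (−0.24 to 0.23), *Ermn* (−0.092 to 0.26), *Apod* (−0.36 to 0.077), *Bcas1* (−0.37 to 0.25), *Cd82* (−0.022 to 0.37), *Gjc3* (−0.21 to 0.22), *Sgms1* (−0.13 to 0.013) and *St18* (−0.28 to 0.099). They did so in HET against WT for *Apod* (−0.011 to 0.41), *Cacng4* (−0.33 to 0.016), *Omg* (−0.05 to 0.19), *Rras2* (−0.16 to 0.076) and *Zfp488* (−0.21 to 0.13), and in KO against HET for *Mbp* (−0.51 to 0.015). Such fits hold fewer mice. The cause was not tested further. The depth is unknown, so what it limits could not be given.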
